A study of Rattus norvegicus with 12 samples.

Results

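The transcripts described here encode 9 members of the interleukin 1 (IL-1) system: the interleukin 33 (IL-33) receptor ST2 (gene symbol Il1rl1), its ligand Il33, the shared co-receptor Il1rap, the IL-1 receptors Il1r1 and Il1r2, the receptor antagonist Il1rn and the ligands Il1a, Il1b and Il18. They were taken as all probes of the array whose annotated gene symbol was 1 of these 9, which gave 10 probes (Il33 has 2) among 13337 genes with a symbol. They were chosen by their signal in earlier results of the same tumours and the same contrast, in which Il1rl1 stood among the largest rises. The differences of the 9 genes between the groups are therefore described with their spread and no test is drawn from them.

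Tumours were grown for 3 weeks in the cortex of syngeneic female Fischer rats (4 to 6 weeks old) from 9L cells, a rat gliosarcoma line. In 6 rats the cells had been transfected with EGFRvIII, an epidermal growth factor receptor that lacks part of its outer domain and signals without ligand, and in the other 6 with the empty vector (EV). Transfected cells had been selected with zeocin at 600 µg/ml, and all rats were otherwise untreated. The labels name 1 line per group, so a difference between the 2 lines cannot be told apart from an effect of EGFRvIII, and the 6 rats of a group measure the spread between rats. RNA of each whole tumour was read on 1 Illumina RatRef-12 bead array. In such bulk RNA a change in the number of cells of a type and a change in RNA per cell cannot be told apart.

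ST2 binds IL-33 and, with the co-receptor encoded by Il1rap, passes the signal through MyD88 and IRAK kinases to NF-kB and MAP kinases. IL-1 alpha and IL-1 beta use the same co-receptor with the receptor encoded by Il1r1. Il1r2 encodes a decoy receptor with no signalling domain, Il1rn encodes an antagonist that occupies the receptor without signalling, and IL-18 has its own receptor pair. Il1rl1 has alternative promoters and gives both a membrane receptor and a secreted form that traps IL-33; in rat fibroblasts it was first described, as Fit-1, among genes that respond to the transcription factor Fos. In brain, IL-33 is held in the nuclei of astrocytes and oligodendrocytes and is released on injury.

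Between 11182 and 12719 of 22523 probes were detected per array (detection p under 0.05). The 75th percentile of the signal was lower on EGFRvIII arrays (98.7 to 121) than on EV arrays (128.9 to 154.6), a gap present before the arrays were normalized to one another. The Egfr probe was detected on 0 of 12 arrays, and as its position relative to the deletion is not stated, it cannot serve as a check of the group labels. Astrocyte, oligodendrocyte and neuron markers were highest in EV rat 2 (means of log2 signal 9.94, 8.79 and 9.15) and, among EGFRvIII tumours, in rat 1 (8.07, 7.59 and 7.63). EV rat 3 held the lowest level of macrophage and of T cell markers (7.25 and 5.07, against EV medians of 8.73 and 7.45).

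EGFRvIII tumours held far more Il1rl1 transcript than EV tumours, and Il1a, Il1rn, Il18 and Il1r2 were higher as well, whereas Il33, Il1rap, Il1r1 and Il1b were close to their EV levels. By limma, fitted over all 11695 genes tested, 5 of the 9 genes were past an adjusted p of 0.05 in the upward direction, where 11.1% of all genes were, and 0 were past it in the downward direction, where 10.4% of all genes were. Il1rl1 was the 1 gene of the 9 whose groups did not overlap with EGFRvIII above EV, which held for 5.63% of all genes. The median difference of the 9 genes was 0.62 on the log2 scale, beside 0.01 for all genes. These counts describe the genes and nothing is read from them, because the same contrast entered the choice of genes. The same holds wherever 1 of the 9 genes is said below to be past the threshold or not.

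**Figure D1:**
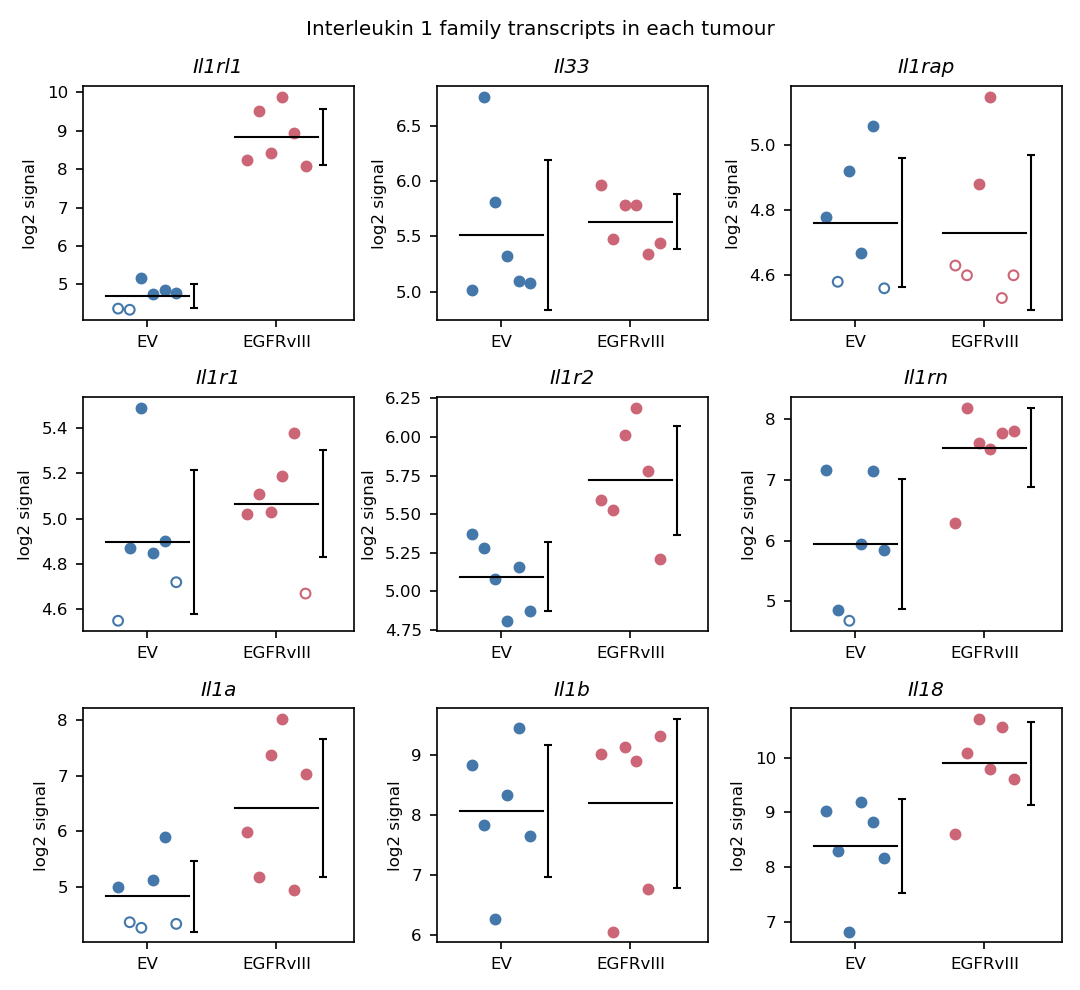
Normalized log2 signal of the 9 genes in each tumour, 1 panel per gene with its own axis. Points are tumours in order of rat number, open points lie under detection, horizontal lines are group means and bars are 1 SD (n = 6). The 6 EGFRvIII tumours lie between 8.09 and 9.89 for Il1rl1, all above the EV tumours, while for Il1b 2 EGFRvIII tumours lie far below the other 4.

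Among the receptors, Il1rl1 differed most. Its probe gave normalized log2 signals from 4.34 (EV rat 2) through a median of 4.76 to 5.17 (EV rat 3) in EV tumours, and from 8.09 (rat 6) through 8.68 to 9.89 (rat 4) in EGFRvIII tumours. On the linear scale, before normalization, these were signals of 1.4 to 18.1 against 201.9 to 950.6. The probe was detected in 4 of 6 EV tumours, not in EV rats 1 and 2, and in 6 of 6 EGFRvIII tumours. Il1rl1 was thus near background in every EV tumour and well above it in every EGFRvIII tumour. The group means were 4.71 ± 0.31 and 8.85 ± 0.73 (SD, n = 6 each), a difference of 4.14 ± 0.29 (SE) or 17.6-fold, and 16.3-fold with values under the detection floor of each array raised to that floor. Il1rl1 ranked 3 among all genes by the size of the rise. In the authors' own log2 values, which carry no offset against background, the difference was 6.20. The array has 1 probe for Il1rl1, and which of the membrane and secreted transcripts it reads could not be established.

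Il1rap, the co-receptor that ST2 and the IL-1 receptor share, was dim in both groups. Detection was reached in 4 EV and 2 EGFRvIII tumours, with log2 signals of 4.56 to 5.06 (median 4.73) and 4.53 to 5.15 (median 4.61). The groups overlapped almost entirely, with a difference of -0.03 ± 0.12 (SE). Il1r1, the signalling receptor for IL-1 alpha and IL-1 beta, was detected in 4 EV tumours and 5 EGFRvIII tumours, at 4.55 to 5.49 (median 4.86) and 4.67 to 5.38 (median 5.07). It differed by 0.17 ± 0.15 (SE), and its highest value lay in EV rat 3. Il1r2, the decoy receptor, was detected in all 12 tumours, at 4.81 to 5.37 (median 5.12) in EV and 5.21 to 6.19 (median 5.69) in EGFRvIII tumours. Of the 6 EGFRvIII tumours 5 lay above the highest EV tumour, and the difference was 0.62 ± 0.16 (SE), or 1.54-fold.

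Il1rn, the receptor antagonist, was among the higher genes. It lay between 4.68 (EV rat 3, not detected) and 7.16 (EV rat 1) in EV tumours, with a median of 5.90, and between 6.29 (rat 1) and 8.19 (rat 2) in EGFRvIII tumours, with a median of 7.69. EV tumours spread widely (mean 5.94 ± 1.07 SD), and 5 of 6 EGFRvIII tumours (mean 7.53 ± 0.65 SD) lay above all of them. The difference was 1.59 ± 0.45 (SE), or 3.01-fold.

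The ligands differed from one another in how they compared between the groups. Il33, the ligand of ST2, was detected in all 12 tumours by 1 probe, at 5.01 (EV rat 1) to 6.77 (EV rat 2) with a median of 5.21 in EV tumours and at 5.34 to 5.97 with a median of 5.63 in EGFRvIII tumours. The EGFRvIII tumours lay within the EV range, and the difference was 0.12 ± 0.26 (SE). Without EV rats 2 and 3 and EGFRvIII rat 1, the tumours highest in brain markers or lowest in macrophage markers, the Il33 difference was 0.44 ± 0.13 (SE). Those EV rats held the highest EV values of Il33 (6.77 and 5.81), and EGFRvIII rat 1 held the highest of its group (5.97). Leaving the EV rats out by itself opened the gap between the 4 EV tumours left (5.01 to 5.32) and the 5 EGFRvIII tumours left (5.34 to 5.79). This was the 1 alternative of 27 in which Il33 was past the threshold, and nothing is read from it. With the mean of 20 brain markers as a covariate the Il33 difference was 0.39 ± 0.15 (SE), not past the threshold. The second Il33 probe was detected on 0 of 12 arrays.

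Il1a was detected in 3 of 6 EV tumours (rats 1, 4 and 5) and in 6 of 6 EGFRvIII tumours. Its log2 signal ran from 4.27 to 5.90 (median 4.69) in EV tumours and from 4.94 to 8.02 (median 6.51) in EGFRvIII tumours, where rats 2 and 5 stayed within the EV range and the other 4 lay above it. The difference was 1.58 ± 0.50 (SE), or 3.00-fold, and 2.65-fold with values raised to the detection floor. Its place in the count above depended on the settings, as Il1a stayed past the threshold in 12 of 26 alternatives. That call was lost, among others, without any single one of EV rats 1, 2, 3 and 6 and EGFRvIII rats 3, 4 and 6. Il1b was detected in all 12 tumours. It ran from 6.28 (EV rat 3) to 9.46 (EV rat 5) in EV tumours, and in EGFRvIII tumours it was 6.06 in rat 2, 6.77 in rat 5 and 8.90 to 9.32 in the other 4. The group means were 8.07 ± 1.10 and 8.20 ± 1.41 (SD, n = 6 each), a difference of 0.13 ± 0.63 (SE) whose sign depended on which tumours were used (-0.54 without EV rats 2 and 3 and EGFRvIII rat 1).

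Il18 was detected in all 12 tumours, at 6.82 (EV rat 3) to 9.18 (EV rat 4) with a median of 8.56 in EV and at 8.61 (rat 1) to 10.71 (rat 3) with a median of 9.93 in EGFRvIII tumours. All EGFRvIII tumours but rat 1 lay above every EV tumour. The difference was 1.51 ± 0.41 (SE), or 2.85-fold. The mean of the 10 macrophage markers tested was 7.25 to 9.05 in EV and 8.55 to 10.21 in EGFRvIII tumours. Of the 10, 2 were past the threshold upward and 0 downward. Within the groups the relation was not uniform: r of Il18 with these markers was 0.96 in EV and -0.45 in EGFRvIII tumours. The part of these cells in the Il1a, Il1rn, Il18 and Il1r2 differences was not tested. Of the 11 macrophage markers on the array 8 were detected in all 12 tumours, Mrc1 in 11, Adgre1 in 9 and Cd163, which was not tested, in 5.

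**Figure D2:**
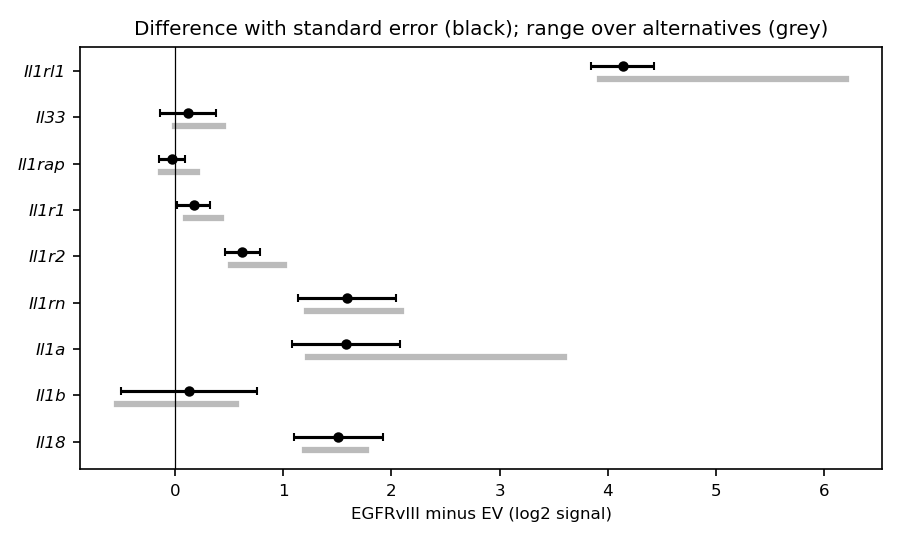
Difference in log2 signal, EGFRvIII minus EV, for the 9 genes. Black points and bars are the estimate and its standard error, and grey bars span the values under the other processing settings and with tumours left out. Il1rl1 lies at 4.14 with a range of 3.93 to 6.20, and the ranges of Il1rap and Il1b reach both sides of 0.

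The sequences just upstream of the genes that were higher are shown because these are the members past the threshold for which a sequence was at hand. RefSeq promoters of the rat assembly GRCr8 were found for 8 of the 9 genes. The 250 bases before the annotated start are given 5′ to 3′ for Il1rl1 (chr9:50203388-50203637, plus strand), Il1a (chr3:136990018-136990267, minus strand), Il1rn (chr3:27520072-27520321, plus strand) and Il18 (chr8:59801822-59802071, plus strand), with any match to the searched motifs in capitals.
Il1rl1: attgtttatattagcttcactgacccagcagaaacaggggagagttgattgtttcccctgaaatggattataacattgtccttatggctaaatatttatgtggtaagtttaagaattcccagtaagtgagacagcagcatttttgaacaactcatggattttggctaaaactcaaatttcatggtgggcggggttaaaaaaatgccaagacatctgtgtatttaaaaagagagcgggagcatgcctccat
Il1a: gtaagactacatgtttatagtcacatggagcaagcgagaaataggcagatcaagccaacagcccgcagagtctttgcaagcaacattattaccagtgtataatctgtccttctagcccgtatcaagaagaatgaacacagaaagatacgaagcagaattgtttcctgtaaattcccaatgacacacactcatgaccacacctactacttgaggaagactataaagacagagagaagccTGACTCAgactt
Il1rn: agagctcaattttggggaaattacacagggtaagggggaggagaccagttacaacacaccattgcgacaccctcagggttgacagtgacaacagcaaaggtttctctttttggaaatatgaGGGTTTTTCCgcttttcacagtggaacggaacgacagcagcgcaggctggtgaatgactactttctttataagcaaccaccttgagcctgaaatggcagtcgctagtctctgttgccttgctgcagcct
Il18: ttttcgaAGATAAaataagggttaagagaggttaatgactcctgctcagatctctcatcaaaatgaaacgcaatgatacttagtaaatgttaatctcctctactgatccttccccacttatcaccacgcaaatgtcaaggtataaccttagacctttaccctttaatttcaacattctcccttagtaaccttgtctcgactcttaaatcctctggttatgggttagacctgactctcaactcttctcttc
Both strands were searched for the AP-1 motif TGANTCA (held by 6.34% of 33469 rat promoter windows of the same length), the kB motif, GGG then NN then TTTCC (1.3%) and the GATA motif AGATAA (10.3%). The Il1rl1 window, before 1 annotated start, held 0 matches to any of the 3, and no other promoter of this gene was searched. Il1a held 1 AP-1 match that begins 12 bases before the start, Il1rn held 1 kB match at 129 bases, and Il18 held 1 GATA match at 243 bases. Of the members not past the threshold, Il33 also held 1 GATA match, at 209 bases before 1 of its annotated starts. Il1b, Il1r1 and Il1rap held 0 matches. A match describes the letters and not a bound site.

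Il1rl1 lies on chromosome 9 in a cluster of related receptor genes, and the data were used to see whether its neighbours differed too. In gene order, the 4 genes with a probe on its left were Map4k4, Il1r2, Il1r1 and Il1rl2, and the 4 on its right were Il18r1, Slc9a4, Slc9a2 and Mfsd9. The closest on either side, Il1rl2 (the interleukin 36 receptor) and Il18r1 (the interleukin 18 receptor), were each detected on 0 of 12 arrays. Slc9a4, a sodium-proton exchanger, was also detected on 0 arrays, and its relative Slc9a2 was detected in 4 EV tumours and 0 EGFRvIII tumours. Mfsd9, a transporter-like gene, reached detection in 3 EV tumours and 1 EGFRvIII tumour. Map4k4, a kinase, differed by 0.26 ± 0.15 (SE; limma adjusted p = 0.245). The differences of the 8 neighbours ran from -0.35 (Slc9a2, not tested) to 0.62 (Il1r2).

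**Figure D3:**
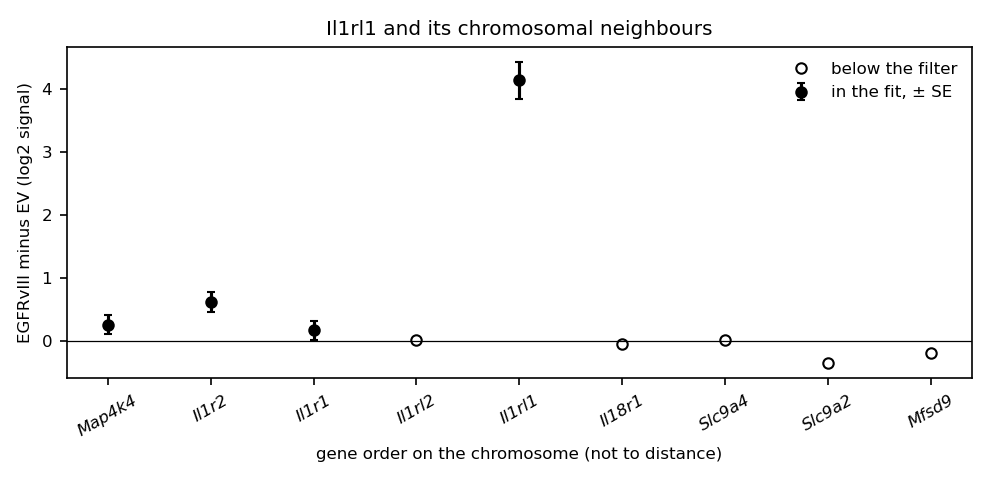
Difference in log2 signal, EGFRvIII minus EV, of Il1rl1 and of the 4 genes with a probe on either side, in gene order and not to distance. Filled points with standard errors were part of the fit, and open points were detected on too few arrays to enter it. Il1rl1 stands at 4.14 and its neighbours lie between -0.35 and 0.62.

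Within each group the tumours varied, and this variation had no part in the choice of genes. Of 14 relations of a member with another member or with the mean of a marker list, 20 could be computed within a group where the member was detected in at least 5 of 6 tumours, and p-values were adjusted over these 20, which include 4 of Il1b in EGFRvIII tumours. The exact permutation test cannot give a p under 0.00139 with 6 tumours. In EV tumours Il1b followed macrophage markers (r = 0.94, exact permutation p = 0.00139, adjusted 0.0278, rho = 1.00, p = 0.00278, adjusted 0.0556, n = 6, and r = 0.95 without rats 3 and 5). The r was 0.93 to 0.97 under the 17 alternatives run. After scaling to the 75th percentile, which keeps all tumours, no relation passed the adjustment, so the call depends on the processing. The relation of Il1b cannot be called particular to macrophage markers. EV rat 3, lowest in Il1b, also held the lowest EV means of T cell, dendritic cell and microglia markers (5.07, 6.55 and 6.47). The T cell gene Cd8a gave r = 0.95 with Il1b in EV tumours. It was picked among 8374 genes for its likeness to Il1b over these same tumours, so this r adds no support. With an EV tumour left out the smallest exact p is 0.00833, and a single relation cannot then pass the adjustment, so those fits do not bear on the call. In EGFRvIII tumours Il1b fell into 4 high and 2 low tumours, so no correlation is given for it there. The 2 low ones, rats 2 and 5, had macrophage marker means of 8.55 and 8.71, and the other 4 had 9.70 to 10.21.

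The remaining relations did not pass the adjustment. For Il18 and macrophage markers in EV tumours the correlation was positive (r = 0.96, rho = 0.77, exact permutation p = 0.0139 and 0.103, adjusted 0.0509 and 0.228, and r = 0.92 without rats 3 and 4). In EGFRvIII tumours it was negative (r = -0.45, rho = -0.60, exact permutation p = 0.365 and 0.242, adjusted 0.457 and 0.439, and -0.84 without rats 1 and 3), and whether the 2 correlations differ was not tested. Il1rn and Il1b in EV tumours gave a positive correlation (r = 0.88, rho = 0.89, exact permutation p = 0.0153 and 0.0333, adjusted 0.0509 and 0.133, and r = 0.81 without rats 3 and 5). In EGFRvIII tumours the rats with the least Il1b, 2 and 5, held Il1rn at 8.19 and 7.77, the highest and, after the 7.81 of rat 6, the next of the 6 values. Il1b with the 3 neutrophil markers tested in EV tumours gave a positive correlation (r = 0.93, rho = 0.83, exact permutation p = 0.0139 and 0.0583, adjusted 0.0509 and 0.194), but r was 0.39 without rats 3 and 5, so the relation rests on those tumours. In EGFRvIII tumours rats 2 and 5, low in Il1b, held the highest neutrophil marker means (5.94 each, against 4.99 to 5.78 in the other 4), and whether the groups differ in this was not tested. Of 12 neutrophil markers 6 were detected on 0 arrays, S100a9 and Cxcr2 among them.

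Il33 was set against glial markers, and none of these relations passed the adjustment. In EV tumours its r with oligodendrocyte markers was 0.95 (rho = 0.89, exact permutation p = 0.0111 and 0.0333, adjusted 0.0509 and 0.133, and 0.97 without rats 2 and 3), and its r with astrocyte markers was 0.92 (rho = 0.94, exact permutation p = 0.0222 and 0.0167, adjusted 0.0635 and 0.133, and 0.92 without rats 2 and 3). EV rat 2 held the most of all 3, and without it alone r was 0.74 and 0.54. In EGFRvIII tumours r was 0.66 and 0.74 (rho = 0.37 and 0.60, exact permutation p = 0.106 and 0.05, p of rho 0.497 and 0.242, adjusted 0.192 and 0.125, of rho 0.663 and 0.439), and 0.06 and 0.49 without rats 1 and 5, so the first rests on those tumours. With fibroblast and meningeal markers r was 0.53 in EV and 0.15 in EGFRvIII tumours (rho = 0.89 and 0.03, exact permutation p = 0.226 and 0.789, p of rho 0.0333 and 1, adjusted 0.348 and 0.928, of rho 0.133 and 1), and 0.94 and -0.82 without the 2 farthest tumours. Neuron markers, for which no relation with Il33 was computed, were likewise highest in EV rat 2 (9.15) and in EGFRvIII rat 1 (7.63). These tumours also held the most Il33 of their groups (6.77 and 5.97), so the correlations cannot be called particular to glial markers.

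**Figure D4:**
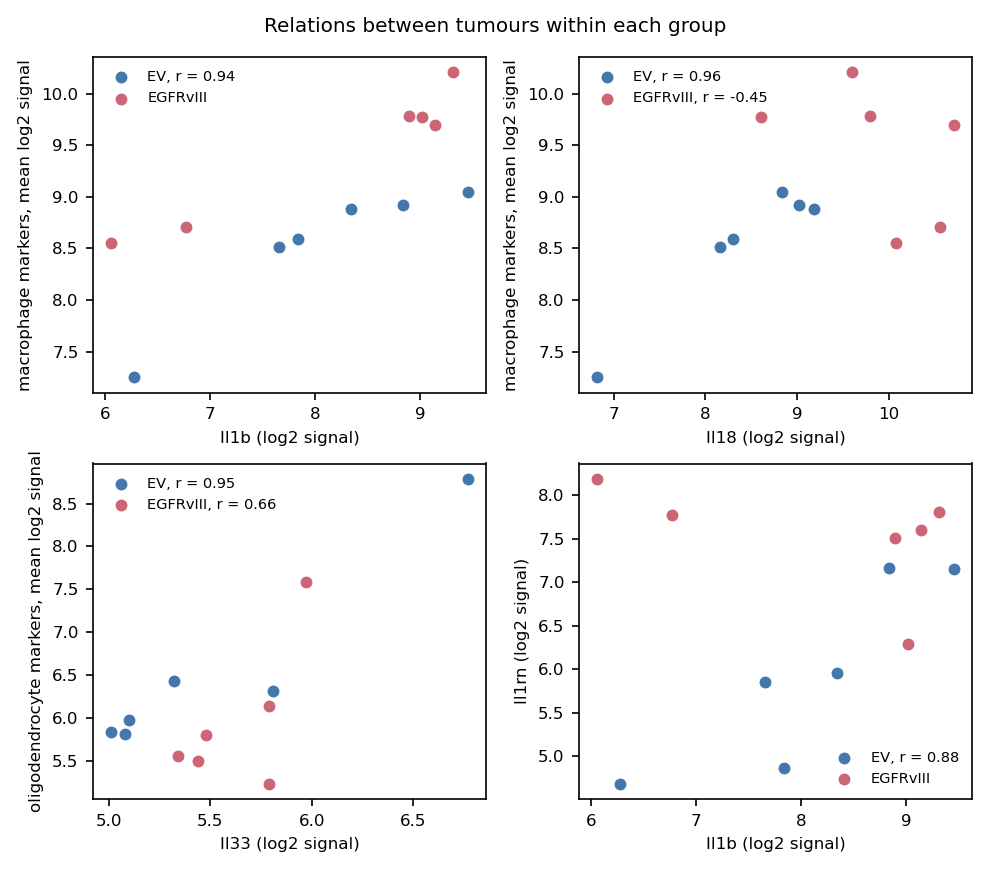
Each point is a tumour, with EV in blue and EGFRvIII in red. Axes are log2 signal of a gene or the mean log2 signal of a marker list. In EV tumours r is 0.94 for Il1b and 0.96 for Il18 with macrophage markers and 0.95 for Il33 with oligodendrocyte markers. EGFRvIII rats 2 and 5 combine low Il1b with Il1rn of 8.19 and 7.77, and rat 6 combines the highest Il1b of its group (9.32) with Il1rn of 7.81.

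Among EGFRvIII tumours no relation of Il1rl1 passed the adjustment. Its r with Il33 was -0.09 (rho = 0.09, exact permutation p = 0.863 and 0.919, adjusted 0.928 and 0.968, and -0.44 without rats 2 and 4). With macrophage markers r was -0.49 (rho = -0.43, exact permutation p = 0.297 and 0.419, adjusted 0.396 and 0.645, and -0.99 without rats 2 and 4). With the 3 mast cell and basophil markers that could be tested (Kit, Gata2 and Srgn) r was 0.61 (rho = 0.37, exact permutation p = 0.157 and 0.497, adjusted 0.262 and 0.663) and -0.63 without rats 2 and 4, so its sign rests on those tumours. Il1r1 gave correlations near 0 with fibroblast markers (r = -0.04, rho = -0.20, exact permutation p = 0.949 and 0.714, adjusted 0.949 and 0.793, and -0.64 without rats 5 and 6) and with endothelial markers (r = 0.07, rho = 0.31, exact permutation p = 0.882 and 0.564, adjusted 0.928 and 0.705, and 0.04 without rats 5 and 6).

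ST2 is also carried by mast cells, regulatory T cells and type 2 lymphoid cells, so their markers were read beside it. Of 13 mast cell and basophil markers on the array 6 were detected on 0 of 12 arrays, among them the high-affinity IgE receptor chains Fcer1a and Ms4a2 and the proteases Tpsb2 and Cma1. The mean of the 3 tested was 5.77 to 6.31 in EV and 5.27 to 5.79 in EGFRvIII tumours, with 0 past the threshold upward and 1 downward. The regulatory T cell factor Foxp3 was detected on 0 arrays. The mean of the 4 tested markers of those cells was 5.09 to 7.10 in EV and 5.28 to 7.23 in EGFRvIII tumours, with 1 upward and 0 downward. For type 2 lymphoid cells the mean of 3 markers was 5.29 to 5.76 in EV and 5.17 to 5.76 in EGFRvIII tumours, with 0 past the threshold, and the cytokine Il13 was detected on 0 arrays. Fibroblast and meningeal markers, read because rat fibroblasts can express Il1rl1, were lower in EGFRvIII tumours (mean of 10 markers 8.59 to 10.37 in EV and 7.59 to 8.52, 1 upward and 6 downward). Of 9 T cell markers 0 passed in either direction, of 6 microglia markers 0 upward and 2 downward, of 6 dendritic cell markers 1 upward and 3 downward, and of 2 erythroid markers 0. Of the 3 neutrophil markers tested 1 was higher, and 0 of 20 astrocyte, oligodendrocyte and neuron markers passed. Any part of these cells in the Il1rl1 difference was not tested.

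The genes whose deviations from the group means were most like those of Il1rl1 over the 12 tumours, among 8374 other genes with a symbol, were Slc1a4, a neutral amino acid transporter (r = 0.97), Xpot, the tRNA export receptor (0.94), Pmaip1, the pro-apoptotic protein Noxa (0.94), Otud6b, a deubiquitinase (0.92), and Rhcg, an ammonium transporter (0.92). Xpot itself rose in EGFRvIII tumours (0.89 ± 0.17 SE, limma adjusted p = 0.0027), and Slc1a4 differed by 0.34 ± 0.20 (adjusted p = 0.254). Pmaip1 (0.58 ± 0.25, adjusted p = 0.119), Otud6b (0.06 ± 0.18, 0.85) and Rhcg (0.05 ± 0.11, 0.799) did not pass either. The EV values of Il1rl1 behind its correlations lay near background (4.34 to 5.17, not detected in EV rats 1 and 2). For Il33 the closest were Cbs, cystathionine beta-synthase (0.96), Atp2a2, a calcium pump (0.96), and Ip6k2, an inositol phosphate kinase (0.96). For Il1b they were the lymphocyte genes Cd69, Gzma and Cd8a (0.97 each). EGFRvIII rats 2 and 5, low in Il1b, also had the lowest T cell marker means of their group (5.59 and 6.18, against 7.62 to 8.53). These values are the highest of many on shared arrays and are given as a description.

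Other genes of the pathway were read in 5 lists, with counts set beside the 21.5% of all genes past the threshold. The lists were drawn up with earlier results of these data known, so the counts and p-values describe the listed genes only. Of 10 other ligands and receptors of the superfamily on the array only 4 passed the filter on dim probes. Of these Il36b, an interleukin 36 ligand, rose (4.30 to 5.11, median 4.46, in EV and 4.40 to 6.02, median 5.44, in EGFRvIII tumours, 0.86 ± 0.25 SE, limma adjusted p = 0.0236), although it was detected in 2 of 6 EV tumours, and 0 genes of the list passed when EGFRvIII rat 2, 3 or 5 was left out. Il18bp, the soluble inhibitor of IL-18 (0.14 ± 0.50), Sigirr, an inhibitory receptor (-0.18 ± 0.14), and Il1rapl2 (-0.01 ± 0.14) did not pass. The median of the 4 was 0.07.

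Of 29 signal transduction genes tested, 0 rose and 3 fell (10.3% in all, median 0.02). The 3 changes were small: Map3k3, a kinase upstream of NF-kB and MAP kinases (-0.46 ± 0.10 SE, limma adjusted p = 0.00565), the deubiquitinase Otud5 (-0.42 ± 0.13, adjusted p = 0.0323) and Mapk9, the kinase JNK2 (-0.41 ± 0.12, adjusted p = 0.031). Without EV rat 2 or EGFRvIII rat 4 or 5 the count was 1. After scaling to the 75th percentile in place of quantile normalization 4 genes of this list were higher. Of 14 genes for processing and release of IL-1 family cytokines, 1 rose and 0 fell (7.14%, median 0.11). This was Gsdmd, which forms the pore through which mature IL-1 beta leaves the cell (5.85 to 6.56 in EV and 6.84 to 7.46 in EGFRvIII tumours, 0.88 ± 0.16 SE, adjusted p = 0.00172). The protease Casp1, which matures IL-1 beta and IL-18, differed by -0.17 ± 0.24 (adjusted p = 0.671) and the sensor Nlrp3 by 0.37 ± 0.25 (adjusted p = 0.329).

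Of 17 response genes of IL-1 and NF-kB tested, 5 rose and 0 fell (29.4%, median 0.33). The matrix protease Mmp3 lay at 10.04 to 11.43 (median 10.33) in EV and 12.59 to 13.16 (median 12.94) in EGFRvIII tumours, a rise of 2.41 ± 0.21 (SE, limma adjusted p = 9.91e-06). The monocyte chemokine Ccl7 rose by 2.36 ± 0.45 (5.57 to 7.61 in EV and 7.82 to 10.42 in EGFRvIII tumours, adjusted p = 0.00239), the scavenger receptor Olr1 by 1.84 ± 0.32 (adjusted p = 0.00148) and the neutrophil chemokine Cxcl1 by 1.34 ± 0.24 (adjusted p = 0.00177). For each of these 4 genes all 6 EGFRvIII tumours lay above all EV tumours, which held for 5.63% of all genes. The 4 were named for having the largest changes, so nothing is read from this. The fifth, the macrophage growth factor Csf1 (0.76 ± 0.25, adjusted p = 0.0448), is named after its value was seen. It lost its call in 14 of 27 alternatives, among them without any single one of EV rats 2, 3 and 6 and EGFRvIII rats 1, 3, 4, 5 and 6 (adjusted p up to 0.198). Not all such genes passed the threshold: the prostaglandin synthase Ptgs2 differed by -0.42 ± 0.56 (adjusted p = 0.64), Icam1 by 0.27 ± 0.30 (0.575) and Vcam1, which endothelium carries, by -1.32 ± 0.51 (0.0841). For Vcam1, 3 EGFRvIII tumours lay below every EV tumour. Endothelial markers were lower beside it (mean of 8 markers 7.70 to 8.06 in EV and 6.54 to 7.46 in EGFRvIII tumours, 0 upward and 6 downward), and their part was not tested.

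Of 9 genes tested among type 2 effectors linked to ST2, 3 rose and 0 fell (33.3%, median 0.16). Arginase Arg1 lay at 8.32 to 9.33 in EV and 8.88 to 12.50 in EGFRvIII tumours (2.03 ± 0.50 SE, limma adjusted p = 0.0107), the chemokine Ccl17 rose by 1.08 ± 0.34 (adjusted p = 0.0349) and the interleukin 4 receptor Il4r by 1.08 ± 0.33 (adjusted p = 0.033). With EV rat 2, 3 or 6 or EGFRvIII rat 3 left out the count was 1, and it was 0 without EV rats 2 and 3 and EGFRvIII rat 1 together, when the adjusted p of Arg1 was 0.0748. Il4, the cytokine that Il4r binds, differed by 0.08 ± 0.12 (adjusted p = 0.681). Of the 10 macrophage markers tested 2 were higher and 8 did not pass, as given above, and the part of these cells in Arg1 and Ccl17 was not tested.

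**Figure D5:**
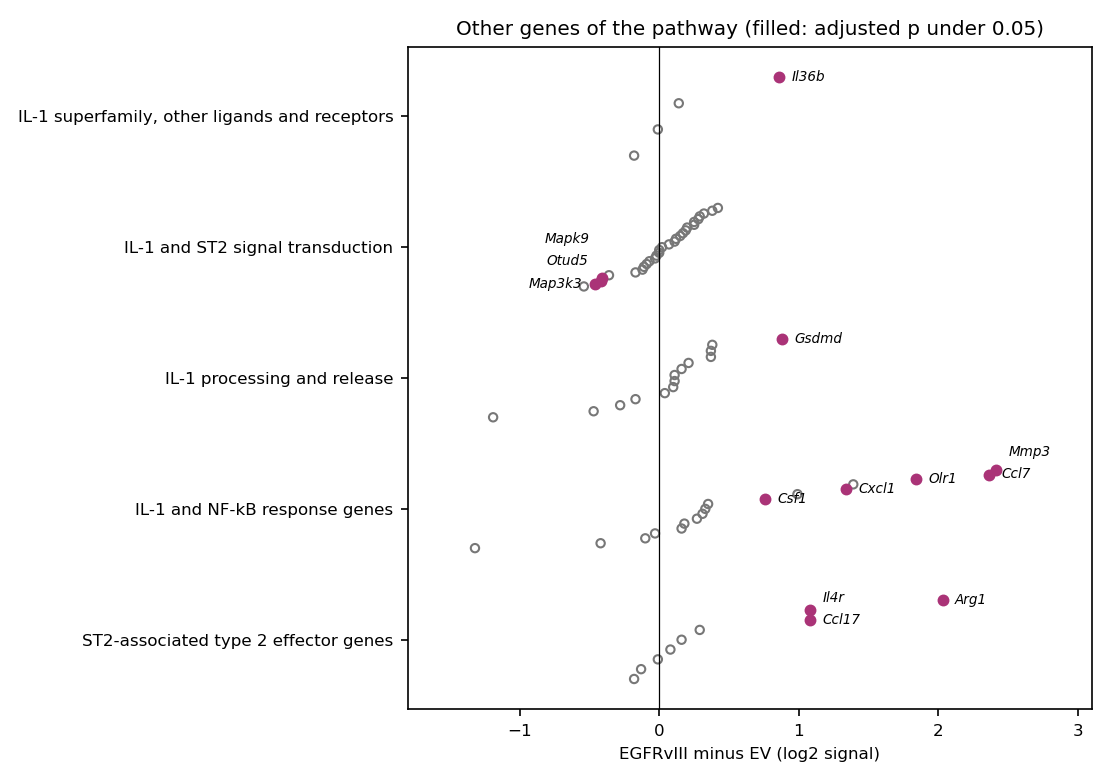
Difference in log2 signal, EGFRvIII minus EV, for each tested gene of the 5 pathway lists, ordered within a list. Filled points passed an adjusted p of 0.05 and are named. The 3 filled points among the signal transduction genes lie at -0.46 to -0.41, and the 5 among the response genes lie between 0.76 and 2.41.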

How the data were processed

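Tumour RNA of 12 rats was read on Illumina RatRef-12 arrays. Per the file headers, the deposited intensity is an average signal per probe; values below 0 show that a background had been subtracted. The deposited detection score, a fraction from 0 to 1, is high for bright probes and was turned into a detection p by subtracting it from 1. The authors' deposited log2 values were taken, from the values alone, as quantile normalized. The submitters' processing notes name Partek, with no version or step, and other steps are not stated.

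Normalization used neqc of limma 3.58.1 (R 4.3.3) on the deposited intensities (offset 16, log2, quantile normalization). The filter kept the 11862 probes detected on 6 or more of 12 arrays, and the kept probe with the highest mean stood for a gene (11695 genes, 8383 with a symbol). The group comparison used lmFit, then eBayes with a trend, two-sided, Benjamini-Hochberg adjusted over all genes, on 10 residual degrees of freedom. Of the listed pathway and marker symbols 232 matched the array and 41 did not. The step was tested on simulated data. Relations, figures and motif searches were made with matplotlib 3.10.9, scipy 1.17.1, numpy 2.4.6 and pandas 2.3.3 under Python 3.11.15.

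The 9 genes and all lists were chosen with earlier results of these data known. Named were all 9 genes, up to 4 called genes per pathway list with the largest change, the 5 genes most like Il1rl1 and 3 each for Il33 and Il1b, and 4 neighbours on either side of Il1rl1. Alternatives covered normalization, the filter, covariates and tumours left out. Scan dates and chip positions were not at hand, so such batches could not be examined. The number of arrays limits the precision.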

Additional observations from a re-analysis of the deposited data

Results flagged for a closer look

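In 3 of 42 groups of 6 tumours, over the 9 genes and the 12 named pathway genes, 1 tumour stood far from the others; chance alone gives about 1 in 20. Il1r1 was 5.49 in EV rat 3, with the next at 4.90 and the lowest at 4.55. Il1rn was 6.29 in EGFRvIII rat 1, below the next at 7.51 and the highest at 8.19. Map3k3 was 8.07 in EGFRvIII rat 2, with the next at 8.39 and the highest at 8.49.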

How the results depend on the processing

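The differences of Il1rl1, Il1r2, Il1rn, Il1a, Il18, Il33 and Il1r1 were upward under all alternatives that gave a value (26 or 27 each), with Il33 rounding to 0.0 after median scaling, whereas the sign of Il1rap held in 21 of 26 and that of Il1b in 19 of 27. Il1rl1 was 6.20 in the authors' log2 values, and 3.93 to 4.29 with 1 tumour left out. Scaling decides the balance of calls: 768 genes were higher and 1799 lower after median scaling (29.9% of calls higher), and 2230 and 979 after 75th percentile scaling (69.5%), against 1299 and 1220 (51.6%); the median of all genes moved to -0.08 and 0.12. Rat numbers do not pair the tumours: deviations of same-numbered tumours correlated at -0.34 to -0.06, and for 0 of 6 numbers was the match with its own number the best. With the rat number as a replicate block 1817 genes were called, 943 higher and 874 lower; Il1rn, Il1a and Il18 were then no longer past the threshold, the superfamily list had 0 higher and the signal transduction list 1 lower. The superfamily list also had 0 higher in the authors' values and with probes detected on all 12 arrays, and 0 to 1 with 1 tumour left out. Signal transduction had 4 higher after 75th percentile scaling, 1 with a filter of 3 arrays and 1 with array weights, and 1 lower with no filter; 1 to 3 were lower with 1 tumour left out. Processing and release had 1 lower, in place of 0, after median scaling, with array weights, with brain markers as covariate and without EV rats 2 and 3 and EGFRvIII rat 1, and 0 to 1 with 1 tumour left out. Response genes had 1 lower after median scaling and with array weights, and 0 to 1 with 1 tumour left out. Type 2 effectors had 1 higher with no filter, 0 without the 3 tumours together and 1 to 3 with 1 left out. Within-group relations past the threshold numbered 1; they were 6 without the background step, 6 after median scaling, 0 after 75th percentile scaling, 8 in the authors' values, 0 without the 3 tumours and 0 to 9 with 1 tumour left out, where a group of 5 tumours cannot carry 1 relation alone past the adjustment. Dim probes limit Il1rap, Il1r1 and the EV values of Il1rl1 and Il1a.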

Other observations

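Of the pathway genes on the array, 38 were too dim to be tested. For 3 of them detection was reached in 0 tumours of one group and at least 3 of the other, though not in every tumour of that other group. The share of all dim probes that meet this rule was not at hand, so nothing is read from the count. Nos2, the inducible nitric oxide synthase, and Irak4, the kinase that MyD88 recruits, each reached detection in 0 EV tumours and 4 EGFRvIII tumours, and Csf2, the cytokine GM-CSF, in 0 and 3. Il6 reached it in 3 EV tumours and 2 EGFRvIII tumours. Il9, Il13 and Il25, cytokines of type 2 immunity, were detected on 0 of 12 arrays.

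With group means taken out, the 36 pairs among the 9 genes had correlations from -0.76 (Il33 with Il1rn) to 0.81 (Il1a with Il1b). Il1rap went with Il1a (0.75) and Il1rn with Il18 (0.73). These are descriptions on shared arrays, and Il1b and Il1a were both low in EGFRvIII rats 2 and 5.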
